A study of Mus musculus with 28 samples.

Results

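The 41 genes described here encode the machinery that copies DNA and the factors that open S phase. They were chosen as a list of gene symbols, and all 41 were found among the 19938 genes with a probe set that carries a single symbol. By role, 11 are grouped as licensing genes (Orc1, Orc6, Cdc6, Cdt1, Mcm2 to Mcm7 and, although it acts after licensing when the helicase is activated, Mcm10), 4 are partners of the replicative helicase (Cdc45, Gins1, Gins2, Gins3), 8 are subunits of the polymerases and primase, and 5 are the sliding clamp Pcna and subunits of its loader (Rfc2, Rfc3, Rfc4, Rfc5). Another 3 handle single strands and joining (Rpa2, Fen1, Lig1), 4 make deoxynucleotides (Rrm1, Rrm2, Tyms, Tk1), 3 rebuild chromatin behind the fork (Chaf1a, Chaf1b, Uhrf1) and 3 drive entry into S phase (Ccne1, Ccne2, E2f1).

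Total RNA of 129SvEv mouse cells was hybridised to 28 Affymetrix whole-transcript arrays in 12 groups. Top2β knockout and wild-type cells were taken as embryonic stem (ES) cells and as neuronal progenitor (NP) cells, then at the stages named TN day 2 and TN day 6; TN is not spelled out in the labels. There were 2 knockout and 2 wild-type arrays at each stage before TN day 6, and 3 of each at TN day 6. Cells labelled as TN day 5 of neurons had received ICRF-193 (2 arrays) or DMSO (2 arrays), and glutamatergic neurons of the E16.5 embryonic cortex had received ICRF-193 (3 arrays) or DMSO (3 arrays). ICRF-193 inhibits both type II topoisomerases, Top2α and Top2β. The dose was 50 µM, with a fresh change every 24 h over TN days 2 to 5. That note stands on every sample, so it does not settle when the cortical neurons were treated, and the genotype of the drug-treated cells is not labelled. The labels name no promoter, exon or clone for the knockout and no separate cultures or animals for replicates. The p-values therefore measure the spread between arrays, which may be technical.

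Replication starts at origins bound by the origin recognition complex. Cdc6 and Cdt1 load the Mcm2 to Mcm7 ring there, and Cdc45 and the GINS complex turn the ring into an active helicase. Polymerase α with its primase starts each strand, polymerases δ and ε extend it on the clamp, and Fen1 and Lig1 finish the lagging strand. Most of these genes are transcribed in late G1 and S phase under E2F factors and are silenced when a progenitor leaves the cycle to become a neuron, which is why they serve as a readout of cycling cells in neural cultures.

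Because E2F control is the best known shared feature of these genes, their promoters were read first. The windows came from RefSeq (GRCm38.p6) and ran from 250 bases before to 50 bases after each gene start. They matched 34 of the 41 genes, with 40 windows in all, and had no entry for Mcm4, Gins1, Gins2, Prim2, Pole, Rfc2 or Ccne2. An E2F word, taken as any of TTTCCCGC, TTTGGCGC, TTTCGCGC and TTTGCCGC on either strand with overlaps allowed, lay in 14 of the 40 windows (35.0%), each of a different gene, and in 2.99% of the 19177 windows of measured genes. The CCAAT word lay in 55.0% of the windows of replication genes and in 37.39% of the windows of measured genes, and the GC box GGGCGG in 72.5% and 49.23%. TTTGAA, the core of the CHR element of late cell cycle genes, lay in 12.5% and 14.85%. A match says only that these letters are in the window. A window without a match lacks only these exact words, so it may still hold other sites for E2F.

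The 6 stretches below are the 150 bases before the gene start, 5′ to 3′ on the gene's strand, with E2F words in capitals. Mcm6 is shown for its 3 words and for its calls in 4 of the 6 comparisons of knockout or drug. Orc1 and Cdc6 show the same kind of word in other licensing genes, and Rfc3 shows that a word can stand before a gene that was called in no comparison of knockout or drug. Rrm2 and Orc6 had no word in the window, and they changed in opposite directions at TN day 6.
Mcm6 (chr1:128359706-128359855, minus strand): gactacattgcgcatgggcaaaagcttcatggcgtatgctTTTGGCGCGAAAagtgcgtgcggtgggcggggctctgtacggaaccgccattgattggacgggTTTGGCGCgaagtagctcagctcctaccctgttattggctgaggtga
Orc1 (chr4:108579304-108579453, plus strand): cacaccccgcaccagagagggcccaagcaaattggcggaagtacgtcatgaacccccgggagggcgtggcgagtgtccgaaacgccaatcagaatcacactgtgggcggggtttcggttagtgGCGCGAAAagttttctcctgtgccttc
Cdc6 (chr11:98908001-98908150, plus strand): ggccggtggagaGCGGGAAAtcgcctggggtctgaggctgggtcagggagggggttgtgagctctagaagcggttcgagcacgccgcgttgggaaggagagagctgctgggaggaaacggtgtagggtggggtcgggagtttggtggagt
Rfc3 (chr5:151651209-151651358, minus strand): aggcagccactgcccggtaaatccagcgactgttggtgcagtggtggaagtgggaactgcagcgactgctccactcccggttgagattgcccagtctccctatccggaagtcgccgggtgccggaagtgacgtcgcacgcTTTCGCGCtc
Rrm2 (chr12:24708104-24708253, plus strand): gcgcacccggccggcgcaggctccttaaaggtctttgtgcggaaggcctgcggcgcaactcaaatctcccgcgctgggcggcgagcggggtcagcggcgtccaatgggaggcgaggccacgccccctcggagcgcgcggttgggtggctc
Orc6 (chr8:85299482-85299631, plus strand): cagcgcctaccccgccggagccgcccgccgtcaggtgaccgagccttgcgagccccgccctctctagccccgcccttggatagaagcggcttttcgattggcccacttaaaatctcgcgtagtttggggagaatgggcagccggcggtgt

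By role, the words stood before 7 of the 10 licensing genes with a window (Orc1, Cdc6, Cdt1, Mcm3, Mcm5, Mcm6, Mcm7), 3 of 6 polymerase and primase genes (Pola1, Pold1, Pole2), 1 of 2 helicase partners (Gins3), 1 of 4 clamp and loader genes (Rfc3), 1 of 3 joining genes (Lig1) and 1 of 3 chromatin genes (Uhrf1). None of the 4 nucleotide genes and neither S phase driver with a window had one. With so few genes a role, no difference between roles was tested. In Mcm6 a pair of words overlapped, starting 110 and 106 bases before the gene start, and the third began 47 bases before it. The word of Orc1 began 27 bases before the start, that of Cdc6 138 bases and the printed word of Rfc3 10 bases.

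A few facts of the series bear on all values below. The deposited values are log2 expression values on an arbitrary intensity scale, so levels are compared between groups for 1 gene and never between genes. Differences are log2 fold changes ± SE of a limma model fitted over all 28 arrays, and a gene is called where its p, adjusted by Benjamini-Hochberg over all 19938 genes, is under 0.05. Top2b was lower in knockout cells at all 4 stages, with a log2 fold change of -1.29 in ES cells and of -2.41 to -2.31 at the later stages. The labels of the earlier stages matched their markers in wild type. In NP cells 10 of 10 pluripotency genes were lower than in ES cells (24.5% of all genes). At TN day 2, 12 of 12 pan-neuronal genes were higher than in NP cells (21.6% of all genes). At TN day 6, 5 of these 12 were higher and 2 lower than at TN day 2 (16.7% and 11.9% of all genes), so they mark that step less clearly. Arrays of a group correlated at 0.9898 to 0.9974 except the knockout ES pair, at 0.9667. Astrocyte genes were present in the DMSO-treated cortical samples, where their list averaged 7.89 to 8.11, above the 6.43 to 6.51 of the ICRF-193-treated ones and the 5.99 to 6.79 of all other groups. Each array holds a whole culture, so fewer cells of a type and less RNA per cell cannot be told apart.

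In wild-type cells the replication genes stepped down along differentiation. Their mean log2 value was 9.63 and 9.58 in ES cells, 9.24 and 9.04 in NP cells, 8.27 and 8.09 at TN day 2, and 7.22, 7.33 and 7.25 at TN day 6, with no overlap between stages. Wild-type ES cells had the highest group mean of 31 of the 41 genes among the 12 groups. The lowest group mean was that of ICRF-193-treated TN day 5 cells for 21 genes and of ICRF-193-treated cortical neurons for 14. The same counts were not made over all genes, so these are not shown to be particular to the list.

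**Figure D1:**
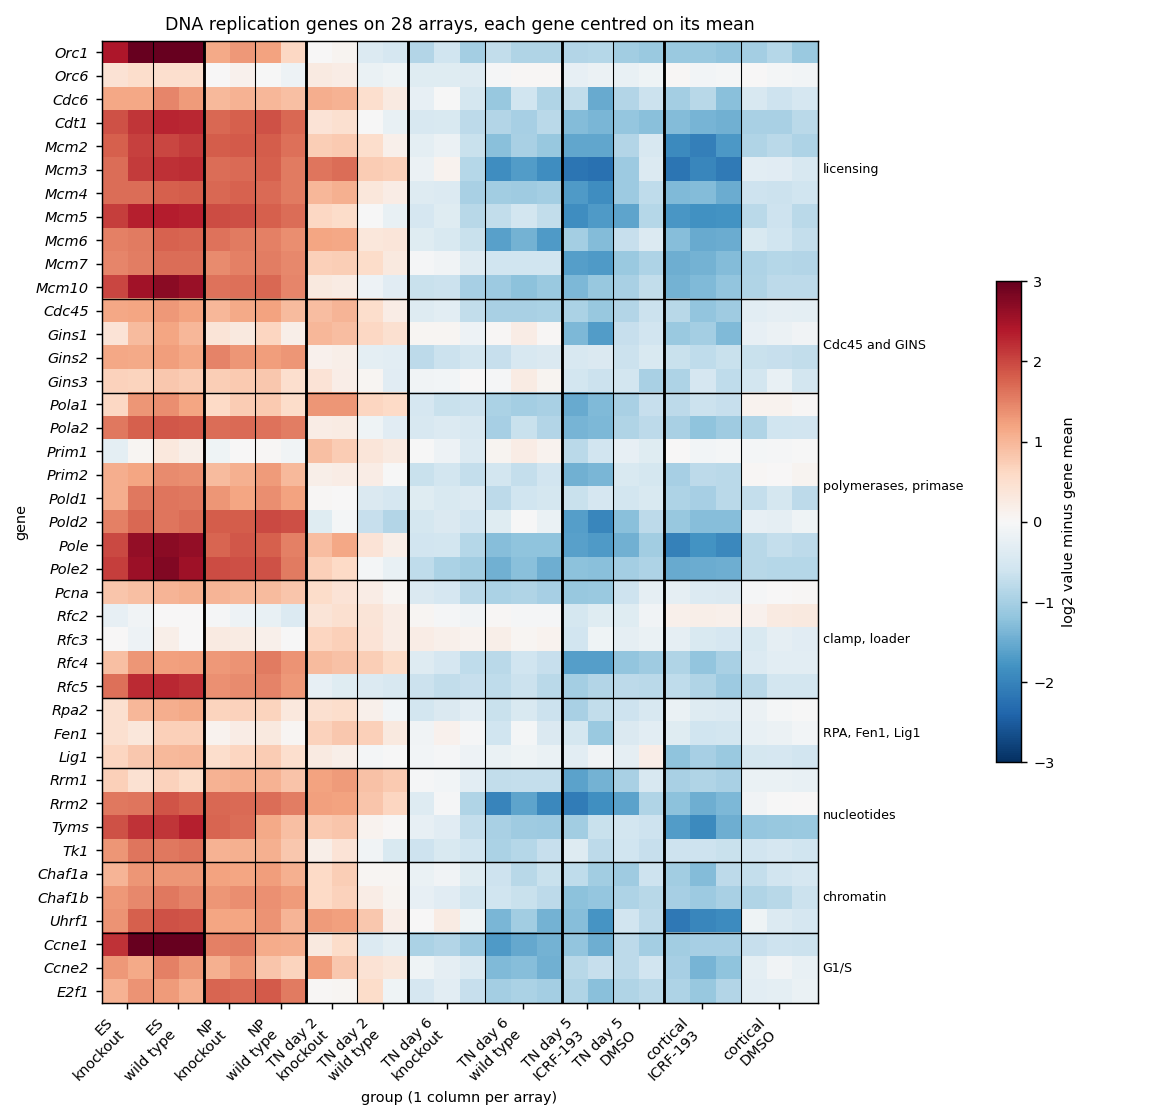
Log2 values of the 41 replication genes (rows, grouped by role) on the 28 arrays (columns, by group), each gene shown as its difference from its own mean over the arrays. Most rows run from red in ES and NP cells to blue at TN day 6 and after ICRF-193, while the rows of Orc6, Prim1, Rfc2 and Rfc3 stay pale and do not follow that order.

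Between ES and NP cells, 20 genes fell, 1 rose and 20 were not called in wild type, against a background in which 46.3% of all genes were called (21.7% higher and 24.5% lower). The median log2 fold change of the list was -0.333 as deposited and -0.207 after quantile normalization. Orc1, the large subunit of the origin recognition complex, had log2 values of 7.11 and 6.52 in NP cells and 9.06 and 9.08 in ES cells, a fall of 2.25 ± 0.18 (adjusted p = 1.3e-09). Ccne1, which encodes the cyclin E1 that activates Cdk2, read 9.34 and 9.34 in NP cells and 11.47 and 11.35 in ES cells (-2.07 ± 0.18, adjusted p = 6.6e-09). These are the genes by which ES cells stood apart most, and their groups lay far from each other. Tyms, the thymidylate synthase, fell by 1.23 ± 0.15, Mcm10, which helps to activate the helicase, by 1.05 ± 0.15, and Pole, the catalytic subunit of polymerase ε, by 1.02 ± 0.17. Smaller falls were those of Pole2 (0.91 ± 0.14), Rfc5 (0.83 ± 0.14), Uhrf1 (0.72 ± 0.20), Gins1 (0.68 ± 0.16) and Rpa2 (0.62 ± 0.15), with adjusted p-values no higher than 0.0054. Of the Mcm2 to Mcm7 ring, Mcm5 alone was called (-0.59 ± 0.17, adjusted p = 0.0075). E2f1, an activating E2F factor, was the gene that rose, by 0.50 ± 0.17 (adjusted p = 0.019). Without wild-type NP replicate 2, 11 genes fell and 1 rose, and Uhrf1, Gins1, Rpa2 and Mcm5 were not called. E2f1 was not called without wild-type NP replicate 1 or ES replicate 2.

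From NP cells to TN day 2 the wild-type fall took in nearly the whole list, with 33 genes lower, 2 higher and 48.2% of all genes called (21.6% higher and 26.6% lower). Pold2, the second subunit of polymerase δ, had the largest fall, with log2 values of 8.31 and 8.12 at TN day 2 and 10.98 and 10.92 in NP cells (-2.73 ± 0.15, adjusted p = 1.6e-12). Cdt1, a loader of the Mcm ring, fell by 1.93 ± 0.12 and Pole2 by 1.88 ± 0.14. Mcm5, Mcm10, Rfc5 and Pola2 fell by 1.86 ± 0.17, 1.84 ± 0.15, 1.84 ± 0.14 and 1.81 ± 0.12, and Pold1, the catalytic subunit of polymerase δ, by 1.76 ± 0.13. In the other roles the leading falls were those of Gins2 (1.59 ± 0.10), E2f1 (1.48 ± 0.17), Tk1 (1.23 ± 0.14), Chaf1b (1.17 ± 0.11) and Lig1 (0.66 ± 0.12), and the highest of these adjusted p-values was that of Lig1, 0.0001. The exceptions were few and named here. Rfc2 rose by 0.62 ± 0.10 (adjusted p = 2.1e-05) and Prim1, the catalytic primase subunit, by 0.36 ± 0.13 (adjusted p = 0.022), a call that was lost without wild-type NP replicate 2 or TN day 2 replicate 1. Orc6 (-0.07), Gins1 (0.15), Pola1 (-0.05), Rfc3 (0.25), Fen1 (0.33) and Rrm1 (-0.11) were not called. Quantile normalization moved the median of all genes in this step by 0.106, and the median of the replication genes was then -1.008, against -1.018 as deposited.

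From TN day 2 to TN day 6, 31 genes fell and 1 rose in wild type, with 28.5% of all genes called (16.7% higher and 11.9% lower). Other genes led in this step. Rrm2, the small subunit of ribonucleotide reductase that limits deoxynucleotide supply, had log2 values of 6.79, 7.21 and 6.86 at TN day 6 and 9.62 and 9.42 at TN day 2 (-2.56 ± 0.19, adjusted p = 2.5e-09). Mcm3 fell by 2.54 ± 0.20, Mcm6 by 1.93 ± 0.12, Uhrf1 by 1.78 ± 0.18 and Ccne2, the second cyclin E, by 1.74 ± 0.13. Pola1, the catalytic subunit of polymerase α, fell by 1.59 ± 0.14, Rrm1 by 1.55 ± 0.12 and Pole by 1.51 ± 0.15, and the leading genes of the clamp loader, the helicase partners and the joining group were Rfc4 (-1.35 ± 0.12), Cdc45 (-1.33 ± 0.13) and Fen1 (-0.86 ± 0.16). Pold2 went the other way, up by 0.58 ± 0.13 (adjusted p = 0.002). Those not called were Orc1 (-0.38), Orc6 (0.17), Gins2 (-0.23), Gins3 (0.22), Prim1 (-0.19), Pold1 (-0.17), Rfc3 (-0.20), Rfc5 (-0.28) and Lig1 (-0.13).

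In knockout ES cells no replication gene was called, where 0.351% of all genes were (0.0853% higher and 0.266% lower). The fold changes nonetheless leaned one way, since 40 of 41 were negative, with a median of -0.206 against 0.009 over all genes. For 25 genes both knockout arrays were below both wild-type arrays (16.9% of all genes) and for 0 genes above (15.6%). Of the 41, 9 had an unadjusted p under 0.05, as did 2995 of all 19938 genes. Knockout replicate 1 was the lower array, with a mean over the 41 genes of 9.26, against 9.51 in the other knockout array and 9.63 and 9.58 in wild type. Ccne1 had 10.42 and 11.33 in knockout cells and 11.47 and 11.35 in wild type (-0.54 ± 0.18, adjusted p = 0.19). Orc1 had 8.32 and 8.96 in knockout cells and 9.06 and 9.08 in wild type (-0.43 ± 0.18, adjusted p = 0.26). In both genes knockout replicate 1 stood far below the other 3 arrays. The largest differences of the other roles, none of them called, were Gins1 (-0.40), Rpa2 (-0.37), Pole (-0.37), Uhrf1 (-0.33), Rfc5 (-0.28) and Rrm2 (-0.24). In the fit without knockout replicate 2, which leaves replicate 1 alone in its group, 11 replication genes were lower. That array also differed in cell markers. Its mesenchymal list averaged 9.94, against 7.87 in the other knockout array and 8.12 and 8.10 in wild type, and its pluripotency list averaged 9.53, against 10.42 in the other knockout array and 10.43 and 10.29 in wild type. Whether these differences account for its replication values was not tested.

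In knockout NP cells 1 of the 41 genes was called, where 0.627% of all genes were (0.381% higher and 0.246% lower). Tyms, which makes the thymidylate needed for DNA synthesis, had log2 values of 9.56 and 9.47 in knockout cells and 8.94 and 8.69 in wild type, a rise of 0.69 ± 0.15 (adjusted p = 0.032). The call rested on the full set of arrays, because Tyms was not called without any 1 of the 4 NP arrays. The next largest differences, neither of them called, were those of Ccne2 (0.44 ± 0.15, adjusted p = 0.29) and Ccne1 (0.42 ± 0.18, adjusted p = 0.57). The largest in the other roles were Orc1 (0.31), Rfc2 (0.22), Pole2 (0.20), Rpa2 (0.19), Gins2 (0.13) and Chaf1b (0.05). The median over the list was 0.089, with 16 genes above wild type on every array (17.1% of all genes) and 2 below (21%).

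At TN day 2 the replication genes were higher in the knockout. Of the 41, 26 rose and none fell, where 11.5% of all genes were called (5.49% higher and 5.97% lower). The median log2 fold change was 0.501, against -0.042 over all genes, and E2f1 was the only gene with a negative one. The genotypes did not overlap for 38 of 41 genes, all of them higher in the knockout (20.5% of all genes, and 31.2% lower), and the exceptions were Prim2, Fen1 and E2f1. By role, 8 of 11 licensing genes, 7 of 8 polymerase and primase genes and 3 of 4 nucleotide genes were called higher. So were 3 of 3 chromatin genes, 2 of 4 helicase partners, 2 of 3 S phase drivers and 1 of 3 joining genes. None of the 5 clamp and clamp loader genes was called, but all 5 were higher on every knockout array (0.133 to 0.359). No difference between roles was tested.

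The 4 largest differences were those of Mcm3, Mcm6, Pole2 and Pole, subunits of the Mcm ring and of polymerase ε, although the ring genes Mcm2 and Mcm7 were not called. Mcm3 had log2 values of 9.53 and 9.60 in knockout cells and 8.69 and 8.63 in wild type, a rise of 0.90 ± 0.22 (adjusted p = 0.0085). Mcm6 had 9.56 and 9.53 in knockout cells and 8.71 and 8.74 in wild type (0.82 ± 0.13, adjusted p = 0.00025). Pole2 had 7.17 and 7.05 in knockout cells and 6.41 and 6.24 in wild type (0.79 ± 0.14, adjusted p = 0.00071). In each of these the arrays of a genotype lay close together and the genotypes did not overlap. Pole rose by 0.76 ± 0.17 (adjusted p = 0.0045), Ccne1 by 0.76 ± 0.18 (0.0082), Mcm4 by 0.76 ± 0.14 (0.0013), Uhrf1 by 0.75 ± 0.20 (0.017) and Tyms by 0.74 ± 0.15 (0.0027). Among the helicase partners Cdc45 led, at 0.61 ± 0.14 (adjusted p = 0.0058), and among the joining genes Rpa2, the middle subunit of the single-strand binding protein, at 0.46 ± 0.15 (adjusted p = 0.049). The largest difference in the clamp group was that of Rfc3, with 9.25 and 9.31 in knockout cells and 9.02 and 8.82 in wild type (0.36 ± 0.12, adjusted p = 0.066).

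The calls at TN day 2 rest on 2 arrays a genotype. Without knockout replicate 2 only 5 genes were called, and without wild-type replicate 2, wild-type replicate 1 or knockout replicate 1 there were 14, 17 and 17, all of them higher. A fit on the 4 arrays alone called 6. Mcm4, Mcm6 and Pole2 were called in every setting tried, whereas Pole, Tyms, Mcm3, Ccne1, Uhrf1 and Cdc45 were lost without knockout replicate 2. Mcm3 and Ccne1 were also lost without wild-type replicate 1, Cdc45 and Uhrf1 without wild-type replicate 2, Uhrf1 without knockout replicate 1, and Rpa2 without any 1 of the 4 arrays. The genes not called, with every one but E2f1 positive, included Mcm2 (0.43, adjusted p = 0.082), Mcm7 (0.30, 0.08), Pcna (0.34, 0.067), Orc1 (0.51, 0.065) and Rrm2 (0.47, 0.17).

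At TN day 6 most of the called genes were again higher in the knockout. Of the 41, 21 were higher and 2 lower, where 10.2% of all genes were called (5.38% higher and 4.8% lower). The median log2 fold change was 0.363 against 0.002 over all genes. After quantile normalization it was 0.275 against -0.002. All knockout arrays were above all wild-type arrays for 25 genes (17% of all genes) and below for 3 (15.8%). Again the roles differed in the count of calls, which was not tested. Called higher were 7 of 11 licensing genes, 3 of 3 chromatin genes, 3 of 3 S phase drivers and 3 of 4 nucleotide genes. So were 3 of 8 polymerase and primase genes, 1 of 4 helicase partners and 1 of 5 clamp genes. None of the 3 joining genes was called, and all 3 had positive fold changes.

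Mcm3 led again. Its log2 values were 7.74, 8.03 and 7.08 in knockout cells and 6.07, 6.25 and 6.05 in wild type, a rise of 1.49 ± 0.18 (adjusted p = 4.7e-06). Rrm2 had 8.40, 8.75 and 7.88 in knockout cells and 6.79, 7.21 and 6.86 in wild type (1.39 ± 0.17, adjusted p = 7.1e-06). Uhrf1, which reads hemimethylated DNA and recruits the maintenance methyltransferase, had 7.71, 7.93 and 7.56 in knockout cells and 6.32, 6.64 and 6.28 in wild type (1.32 ± 0.16, adjusted p = 8.1e-06). For all 3 genes the genotypes were far apart, and knockout replicate 3 was the lowest knockout array. Mcm6 rose by 1.08 ± 0.10 (adjusted p = 2.5e-07), Ccne2 by 1.08 ± 0.12 (1.6e-06), Mcm2 by 0.74 ± 0.13 (0.00036), Cdc6 by 0.62 ± 0.17 (0.017) and Tyms by 0.61 ± 0.12 (0.0017). In the roles not yet named, Pole rose by 0.57 ± 0.14 (adjusted p = 0.0074), Cdc45 by 0.48 ± 0.11 (0.0064) and Pcna by 0.36 ± 0.10 (0.015). Fen1, the flap endonuclease, had the largest difference of the joining genes and was not called (0.35 ± 0.14, adjusted p = 0.15).

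Against this trend stood Orc6, the smallest subunit of the origin recognition complex, and Prim1. Orc6 had log2 values of 8.93, 8.94 and 8.93 in knockout cells and 9.27, 9.33 and 9.34 in wild type, a fall of 0.38 ± 0.07 (adjusted p = 0.00037). Prim1 had 8.51, 8.37 and 8.11 in knockout cells and 8.61, 8.74 and 8.63 in wild type (-0.33 ± 0.10, adjusted p = 0.044). The Orc6 arrays of each genotype lay within a narrow band and far from the other band, whereas the Prim1 bands nearly met. Pold2 also lay below wild type on every array without a call (-0.32 ± 0.12, adjusted p = 0.11). Without knockout replicate 2, 11 genes were called higher and 1 lower, and without knockout replicate 1, 13 and 2. Orc6 and the 10 genes Mcm2, Mcm3, Mcm6, Mcm7, Pole, Rrm1, Rrm2, Tyms, Uhrf1 and Ccne2 were called in every setting tried. Cdc6 was lost without knockout replicate 1 or 2 or wild-type replicate 1 or 3. Prim1 was lost in 8 settings, among them median centring and the fit without any 1 of 5 arrays (all but knockout replicate 1). Cdc45 was lost without knockout replicate 2, and Pcna without knockout replicate 1 or 2 or wild-type replicate 1 or 3.

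**Figure D2:**
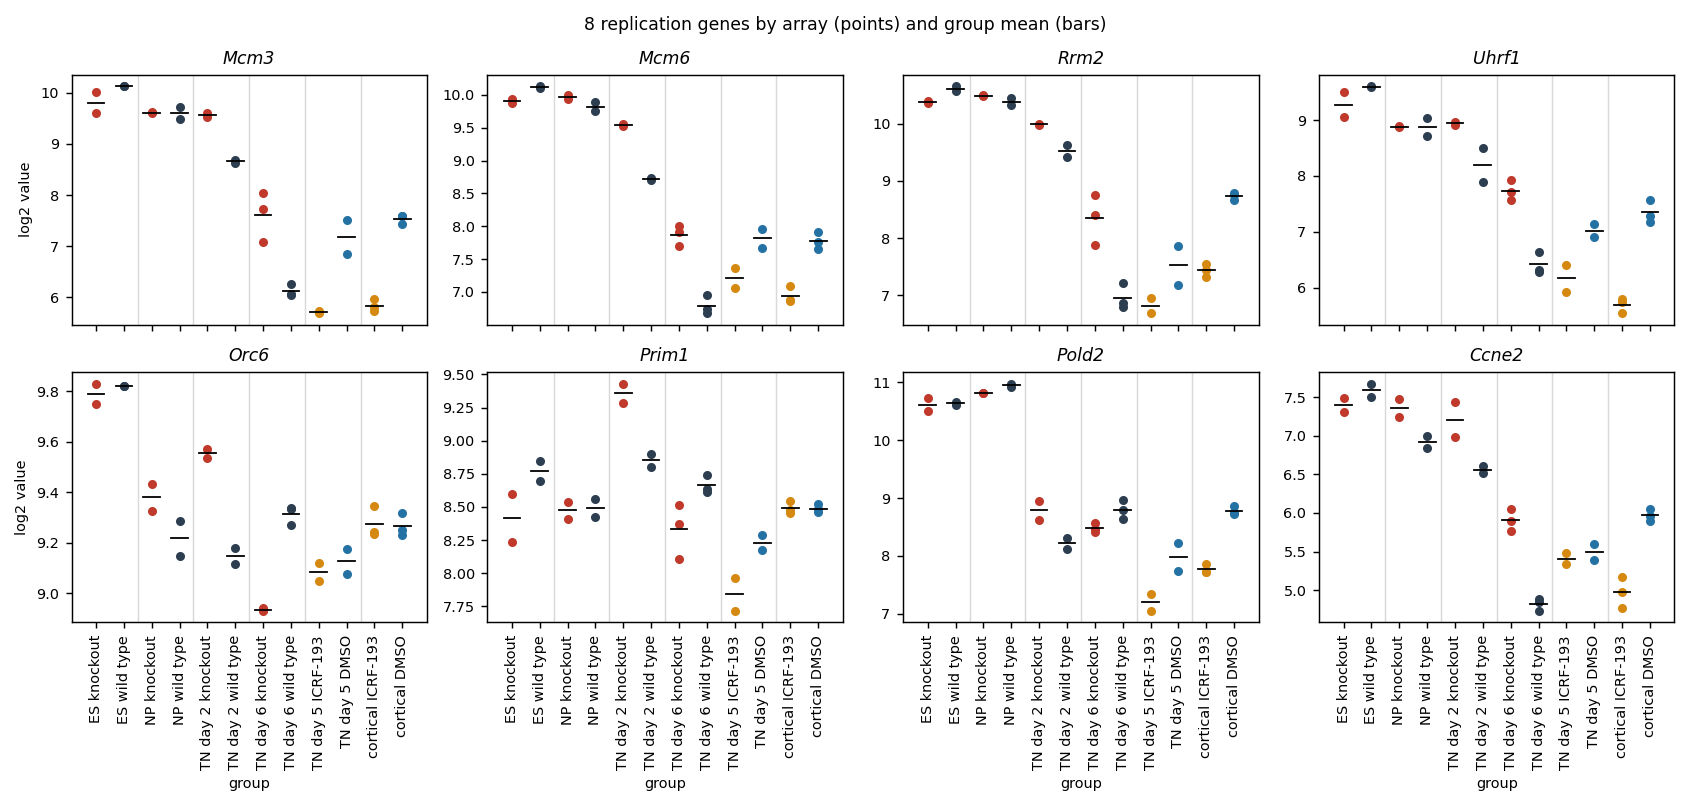
Log2 values of 8 replication genes on each array (points) with the group mean (bars), knockout or ICRF-193 to the left of its wild type or DMSO. Mcm3, Mcm6, Rrm2 and Uhrf1 are higher in the knockout at TN day 6 and lower after ICRF-193, while Orc6 is higher in the knockout at TN day 2 and lower at TN day 6.

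The knockout steps showed how the stages differed. Between NP cells and TN day 2, 26 genes fell and 6 rose in the knockout, where 44.4% of all genes were called (19.6% higher and 24.8% lower), and Pold2 (-2.04 ± 0.15), Rfc5 (-1.70 ± 0.14), E2f1 (-1.67 ± 0.17) and Pola2 (-1.45 ± 0.12) had the largest falls. Mcm5, Mcm10, Cdt1, Pole2 and Gins2 fell by 1.35 ± 0.17, 1.35 ± 0.15, 1.32 ± 0.12, 1.30 ± 0.14 and 1.26 ± 0.10, Tyms by 0.90 ± 0.15 and Chaf1b by 0.72 ± 0.11. Those that rose were Prim1 (0.89 ± 0.13), Pola1 (0.64 ± 0.15), Gins1 (0.62 ± 0.16), Fen1 (0.58 ± 0.17), Rfc2 (0.54 ± 0.10) and Rfc3 (0.43 ± 0.12), with adjusted p-values up to the 0.0085 of Fen1. The call of Fen1 was lost without knockout NP replicate 1 or TN day 2 replicate 2, and that of Rfc3 under median centring. The genes with their highest group mean of all 12 groups in the knockout at TN day 2 were Prim1, Pola1, Rfc2, Rfc3, Fen1 and Rrm1. The other subunits of the polymerase α and primase complex, Pola2 and Prim2 (-0.81 ± 0.11), were highest in wild-type ES cells and fell in this step. Not called were Orc6 (0.18), Cdc6 (0.06), Mcm3 (-0.05), Cdc45 (-0.09), Rpa2 (-0.18), Rrm1 (0.19), Rrm2 (-0.50), Uhrf1 (0.06) and Ccne2 (-0.15). From TN day 2 to TN day 6 in the knockout, 39 genes fell and none rose, where 34.8% of all genes were called (22.1% higher and 12.8% lower). Mcm3 fell by 1.95 ± 0.20, Pola1 by 1.93 ± 0.14, Pole by 1.71 ± 0.15, Mcm6 by 1.67 ± 0.12, Rrm2 by 1.65 ± 0.19, Mcm4 by 1.62 ± 0.13, Pole2 by 1.56 ± 0.13 and Cdc45 by 1.46 ± 0.13. In the other roles Rfc4 (-1.45 ± 0.12), Ccne1 (-1.39 ± 0.17), Uhrf1 (-1.21 ± 0.18) and Rpa2 (-0.93 ± 0.14) led, and Gins3 (-0.36, adjusted p = 0.061) and Pold2 (-0.30, 0.084) were not called. These steps share their arrays with the knockout comparisons, so they are not separate evidence.

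Whether the knockout difference itself changed between stages was tested as a difference of differences. From NP cells to TN day 2 it grew for Cdt1 (0.62 ± 0.16, adjusted p = 0.048) and Mcm6 (0.67 ± 0.18, adjusted p = 0.0498), where 2.71% of all genes were called (1.38% higher and 1.33% lower). Both calls were lost without any 1 of the 8 arrays and under median centring. Next in order were Pold2 (0.70, adjusted p = 0.077), Mcm4 (0.64, 0.095), Pola1 (0.69, 0.097) and Cdc45 (0.62, 0.099).

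Between TN day 2 and TN day 6 the difference turned downwards for 4 genes, where 4.8% of all genes were called (2.71% higher and 2.09% lower). Orc6 was the clearest. It had log2 values of 9.57 and 9.54 in knockout cells and 9.11 and 9.18 in wild type at TN day 2, a rise of 0.41 ± 0.08 (adjusted p = 0.0019), but the fall given above at TN day 6, and its difference of differences was -0.79 ± 0.10 (adjusted p = 7.8e-05). Prim1 had 9.43 and 9.29 in knockout cells and 8.90 and 8.80 in wild type at TN day 2, a rise of 0.51 ± 0.13 (adjusted p = 0.011) that was lost without any 1 of these 4 arrays. Its difference of differences was -0.84 ± 0.16 (adjusted p = 0.0037) and was called in every setting tried. In both genes the genotypes were fully apart at each of these stages and in opposite order. Pold2 (-0.88 ± 0.19, adjusted p = 0.0068) and Gins2 (-0.58 ± 0.13, adjusted p = 0.0081) were the others, and both were lost without knockout TN day 2 replicate 2. In contrast, the estimates of Rrm2 (0.92 ± 0.27, adjusted p = 0.054) and E2f1 (0.66 ± 0.22, adjusted p = 0.091) were positive and not called.

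With ICRF-193 the replication genes were lower. At TN day 5, 16 of 41 replication genes were lower with ICRF-193 and none higher, where 8.89% of all genes were called (2.51% higher and 6.37% lower). The median log2 fold change was -0.390 against 0.02 over all genes, and 29 genes lay below DMSO on every ICRF-193 array (23.4% of all genes) against 1 above (22.7%). The genes that fell were 6 of 11 licensing genes (Mcm2 to Mcm7, the complete ring), 4 of 8 polymerase and primase genes, 2 of 5 clamp genes, 2 of 4 nucleotide genes, 1 of 4 helicase partners and 1 of 3 chromatin genes. None of the 3 joining genes and none of the 3 S phase drivers was called, although all of them had negative fold changes.

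Mcm3 had log2 values of 5.74 and 5.69 with ICRF-193 and 6.84 and 7.51 with DMSO at TN day 5, a fall of 1.46 ± 0.22 (adjusted p = 0.00011). Prim2, the large primase subunit, had 6.14 and 6.22 with ICRF-193 and 7.12 and 7.05 with DMSO (-0.90 ± 0.11, adjusted p = 7.0e-06). Gins1 had 5.73 and 5.41 with ICRF-193 and 6.39 and 6.51 with DMSO (-0.88 ± 0.16, adjusted p = 0.0011). The treatments did not overlap for any of them, and the DMSO arrays were close together for Prim2 and Gins1 but apart for Mcm3. Mcm2 fell by 0.88 ± 0.16 (adjusted p = 0.00083), Mcm4 by 0.85 ± 0.14 (0.00041), Uhrf1 by 0.85 ± 0.20 (0.0095), Rrm1 by 0.79 ± 0.13 (0.00037) and Pold2 by 0.78 ± 0.15 (0.0013). The leading clamp gene was Pcna, with a fall of 0.68 ± 0.12 (adjusted p = 0.00055), and the largest differences of the remaining roles were not called, Fen1 at -0.46 ± 0.17 (adjusted p = 0.11) and Ccne1 at -0.41 ± 0.18 (adjusted p = 0.17).

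The 2 DMSO arrays at TN day 5 differed from each other. The mean of the 41 genes was 7.23 and 7.41 with DMSO, against 6.92 and 6.89 with ICRF-193, and the mitosis list gave 6.24 and 6.86 with DMSO, against 5.80 and 5.67 with ICRF-193. Without DMSO replicate 2, the higher array, 9 genes were called lower, and a fit on the 4 arrays alone called 3. Mcm3, Gins1 and Prim2 were called in every setting tried. Pold2 was lost without DMSO replicate 2, and Uhrf1 without DMSO replicate 1 or ICRF-193 replicate 2.

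In cortical neurons 27 of 41 replication genes were lower with ICRF-193 and none higher, where 23.4% of all genes were called (9.72% higher and 13.7% lower). The median log2 fold change was -0.504 against 0.043 over all genes. Median centring moved the median of all genes by -0.117 and that of the replication genes to -0.622, without turning the sign. All arrays with ICRF-193 lay below all with DMSO for 33 genes (25.9% of all genes) and above for 0 (27.4%). The 16 genes that fell at TN day 5 were all among these 27, which is 59.3% of the 27. Over all genes, 774 were lower in both systems, 60.9% of those lower at TN day 5 and 28.4% of those lower in cortex. By role, 9 of 11 licensing genes, 6 of 8 polymerase and primase genes, 3 of 4 nucleotide genes, 2 of 4 helicase partners, 2 of 5 clamp genes, 2 of 3 chromatin genes, 2 of 3 S phase drivers and 1 of 3 joining genes fell.

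Of the leading genes, Mcm3 and Uhrf1 also led in the knockout at TN day 2 and TN day 6 and with ICRF-193 at TN day 5. Others did not, since Rrm2 was not called at TN day 2, nor Pole and Ccne2 at TN day 5. Mcm3 had log2 values of 5.72, 5.97 and 5.81 with ICRF-193 and 7.60, 7.59 and 7.44 with DMSO in cortical neurons, a fall of 1.71 ± 0.18 (adjusted p = 2.7e-07). Uhrf1 had 5.54, 5.74 and 5.80 with ICRF-193 and 7.57, 7.28 and 7.18 with DMSO (-1.65 ± 0.16, adjusted p = 1.3e-07). Rrm2 had 7.54, 7.32 and 7.44 with ICRF-193 and 8.67, 8.76 and 8.79 with DMSO (-1.31 ± 0.17, adjusted p = 6.6e-06). The arrays of each treatment lay close together and at least a full log2 unit from the other treatment. Pole fell by 1.14 ± 0.14 (adjusted p = 2.0e-06), Mcm5 by 1.04 ± 0.14 (9.7e-06), Pold2 by 1.01 ± 0.12 (1.6e-06), Mcm2 by 1.01 ± 0.13 (4.6e-06) and Ccne2 by 0.998 ± 0.12 (2.0e-06). Gins1 fell by 0.96 ± 0.13 (adjusted p = 1.2e-05), Rfc4, a loader subunit, by 0.67 ± 0.11 (0.00011) and Lig1, which seals Okazaki fragments, by 0.56 ± 0.10 (0.00026). These calls were kept in every setting tried, as were 24 of the 27, and the others were Cdc6, lost without any 1 of the 6 arrays but ICRF-193 replicate 2, Pola2, lost without that array or under quantile normalization, and Chaf1a, lost without that array or DMSO replicate 3. At the other end Orc6 (0.01 ± 0.07), Prim1 (0.00 ± 0.10) and Gins2 (-0.00 ± 0.08) had fold changes at 0, and Rfc2, Rfc3, Tk1 and Orc1 lay between -0.14 and -0.06. Orc1 was near its lowest level of the series with either treatment, at means of 4.76 with ICRF-193 and 4.90 with DMSO.

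Cyclin E2 was the only 1 of the 41 genes whose response was called different between the systems, which says nothing about the list as a whole. Ccne2 had log2 values of 5.33 and 5.48 with ICRF-193 and 5.39 and 5.59 with DMSO at TN day 5, where the treatments overlapped (-0.09 ± 0.15, adjusted p = 0.77). In cortical neurons it had 5.17, 4.77 and 4.98 with ICRF-193 and 5.89, 6.06 and 5.96 with DMSO, without overlap. Its mean with DMSO was thus lower at TN day 5 (5.49) than in cortical neurons (5.97). The lowest group mean of Ccne2 in the series was 4.82, in wild-type TN day 6 cells. Whether the lower start at TN day 5 limited a fall there was not tested. The difference of the responses, cortical minus TN day 5, was -0.91 ± 0.19 (adjusted p = 0.0046), where 4.37% of all genes were called (1.69% higher and 2.68% lower). The next in order, Pole (-0.71, adjusted p = 0.068), Uhrf1 (-0.80, 0.091), Cdc45 (-0.45, 0.20), Lig1 (-0.39, 0.22) and Prim1 (0.39, 0.22), were not called, and the count was 4 without DMSO replicate 2 of TN day 5 and 2 without ICRF-193 replicate 2 of TN day 5.

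**Figure D3:**
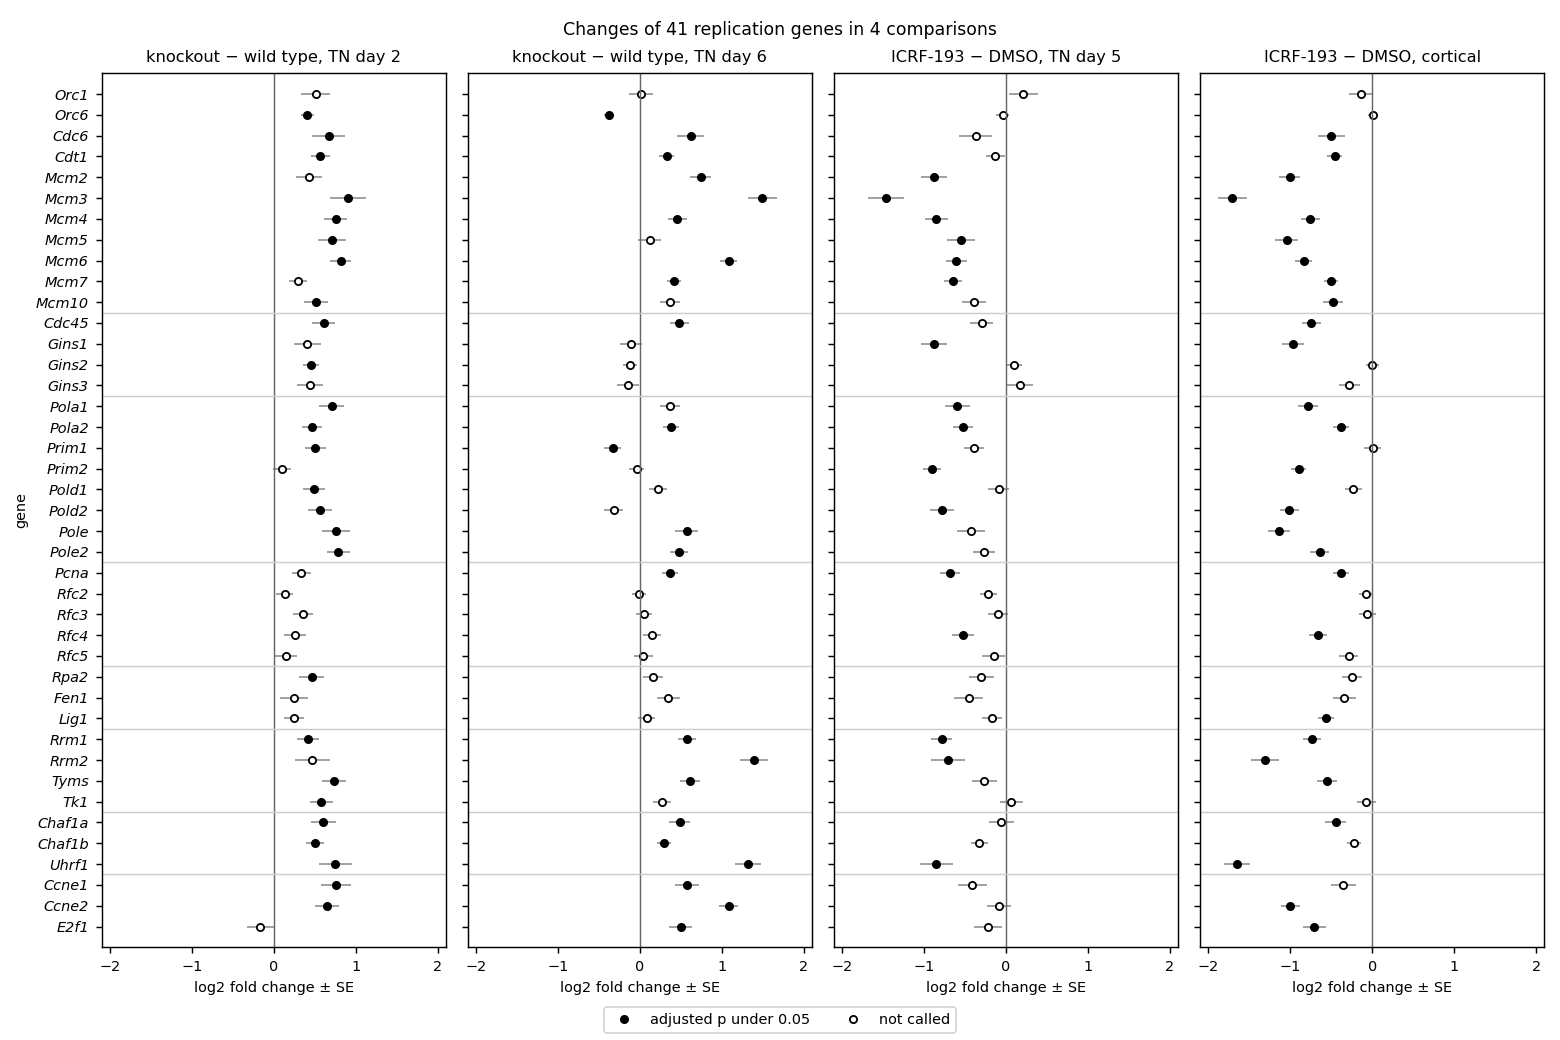
Log2 fold changes ± SE of the 41 replication genes in 4 comparisons, knockout minus wild type at TN day 2 and TN day 6 and ICRF-193 minus DMSO at TN day 5 and in cortical neurons, with called genes filled. Points lie to the right of 0 for most genes in the knockout panels, with Orc6 and Prim1 called to the left at TN day 6, and to the left of 0 for most genes in both ICRF-193 panels.

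The 4 comparisons with many calls share no array, but they share the same estimate of each gene's spread, so their calls are not fully independent. In them, 6 genes were higher in the knockout at both TN days and lower with ICRF-193 in both systems, namely Mcm3, Mcm4, Mcm6, Pola2, Rrm1 and Uhrf1. That is 14.6% of the list, and 60 of all 19938 genes (0.301%) had this pattern. None of the 6 kept all 4 calls in every setting tried. At TN day 2 only Mcm4 and Mcm6 of them did so, and at TN day 5 only Mcm3. Calls at TN day 2 and TN day 6 had 16 higher genes in common, 61.5% of those at TN day 2 and 76.2% of those at TN day 6. Over all genes the calls had 300 higher genes in common, 27.4% of those at TN day 2 and 28% of those at TN day 6. At the other extreme, 6 genes were called in none of the knockout or drug comparisons, Orc1, Gins3, Rfc2, Rfc3, Rfc5 and Fen1, as were 62% of all genes. Of these, 3 are clamp loader subunits, whereas Rfc1, the large loader subunit and no member of the list, was higher in the knockout at TN day 2 (0.65 ± 0.10, adjusted p = 0.00015). Orc1 was low in the later groups. Its means there ran from 4.76 in ICRF-193-treated cortical neurons to 5.07 in knockout TN day 6 cells, against 9.07 in wild-type ES cells. Whether a further fall could be seen at such a level was not tested. Among the 34 genes with a promoter window, 9 of 14 genes with a word and 13 of 20 without one were higher in the knockout at TN day 2 (5.49% of all genes). At TN day 6, 7 of 14 and 11 of 20 were higher (5.38% of all genes), and 0 and 2 were lower (4.8%). With ICRF-193, 6 of 14 and 7 of 20 were lower at TN day 5 (6.37% of all genes), and 10 of 14 and 12 of 20 in cortex (13.7%).

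The genes followed a common course over the 12 groups, with exceptions. Over all 820 pairs the median Pearson r of the 12 group means was 0.9047, as a description of group means that share the stages. Pole (0.9946) and Mcm4 (0.9944) were most like the mean of the other members, and Rfc2 (0.0611), Prim1 (0.4621), Rfc3 (0.5501) and Orc6 (0.7077) least. The same genes had the narrowest ranges, since the group means of Orc6, Rfc2, Rfc3 and Prim1 spanned 0.89, 0.89, 1.09 and 1.52 log2 units, while those of Ccne1 spanned 4.72. Of genes outside the list, the 10 whose course was most like the mean of the members were Ska3 (r = 0.9943), Kif20a, Sgo1, Plk4, Npat, Ercc6l, BC055324, Nudt5, Eme1 and Hmmr (r = 0.9908).

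A symbol can be read by more than 1 probe set. Pcna and Tk1 had 2 each, and for Pcna the choice changed no call. Tk1, the S phase thymidine kinase, was not called in cortical neurons on the set used here (7.01, 7.01 and 6.97 with ICRF-193 and 7.06, 7.12 and 7.03 with DMSO), while the other set read 6.58, 6.06 and 5.86 with ICRF-193 and 6.67, 6.76 and 6.70 with DMSO and was called lower (-0.54, adjusted p = 0.017). The sets disagree there, so the Tk1 response in cortex is uncertain.

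Genes of the same pathway outside the list moved the same way in most calls. Of all genes, 5.49% were higher in the knockout at TN day 2 and 5.38% at TN day 6. With ICRF-193, 6.37% were lower at TN day 5 and 13.7% in cortex. These shares, and those given above for the other directions, also apply to the counts of the lists that follow. Among 39 further replication genes, 8 were higher in the knockout at TN day 2 with none lower, led by Dscc1 of the alternative clamp loader (0.86 ± 0.19, adjusted p = 0.0053), and 5 were higher and 2 lower at TN day 6. Ticrr, the helicase activator also called treslin, had the largest change at TN day 6 (0.86 ± 0.17, adjusted p = 0.0011), and Rnaseh2a, which removes RNA primers, fell (-0.49 ± 0.11, adjusted p = 0.0056). With ICRF-193, 8 fell at TN day 5 and 15 in cortex, with none higher, and Dbf4, the activator of the Cdc7 kinase, led in both (-0.82 ± 0.16, adjusted p = 0.0022, and -0.97 ± 0.13, adjusted p = 1.1e-05). Their median fold changes were 0.237, 0.146, -0.255 and -0.204 in the order of these 4 comparisons.

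The 24 regulators of G1 and S phase gave 8 higher and 1 lower in the knockout at TN day 2, 11 and 1 at TN day 6, 0 and 6 with ICRF-193 at TN day 5, and 1 and 11 in cortex. Cdk6 rose by 1.28 ± 0.21 at TN day 2 (adjusted p = 0.00045), and Ccnd1, the cyclin D1 that pairs with Cdk4 and Cdk6, by 2.05 ± 0.17 at TN day 6 (adjusted p = 2.6e-08). With ICRF-193, Ccna2, the S phase cyclin A2, had a fold change of -1.04 ± 0.20 at TN day 5 (adjusted p = 0.0014), and in cortex of -1.84 ± 0.16 (adjusted p = 1.9e-08). Of 12 p53 targets, 9 were higher in the knockout at TN day 2 and 4 at TN day 6 with none lower, 2 were higher with ICRF-193 at TN day 5, and 4 were higher and 2 lower in cortex.

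Markers of dividing cells and of other cell types moved beside the replication genes, and their part in the results was not tested. Of 24 mitosis genes, 10 were higher in the knockout at TN day 2 and 23 at TN day 6 (median 1.121), and 13 were lower with ICRF-193 at TN day 5 and 24 in cortex (median -1.162). The mean of that list at TN day 6 ranged from 6.75 to 7.28 in knockout cells and from 5.93 to 6.06 in wild type. Of 12 genes of progenitors and radial glia, 2 were higher and 3 lower in the knockout at TN day 2, and 9 were higher at TN day 6, where the list averaged 8.47 to 8.90 in knockout cells and 7.60 to 7.71 in wild type. With ICRF-193, 7 of these 12 were lower at TN day 5 (6.50 to 6.53 with ICRF-193 and 7.67 to 8.31 with DMSO), and 7 were lower and 1 higher in cortex (7.56 to 7.68 with ICRF-193 and 8.51 to 8.54 with DMSO). In cortex 6 of 7 astrocyte genes and 4 of 7 oligodendrocyte lineage genes were lower with ICRF-193 and 8 of 8 microglia genes were higher, with means of the microglia list of 6.95 to 7.09 with ICRF-193 and 6.23 to 6.41 with DMSO. At TN day 2, 3 of 8 mesenchymal genes were higher in the knockout, where the list averaged 9.19 and 9.48 in knockout cells and 7.23 and 9.23 in wild type, and 7 of 12 pan-neuronal genes were lower. At TN day 5 the mesenchymal list averaged 7.20 and 7.18 with ICRF-193 and 7.72 and 8.66 with DMSO, with 1 of 8 genes called lower.

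**Figure D4:**
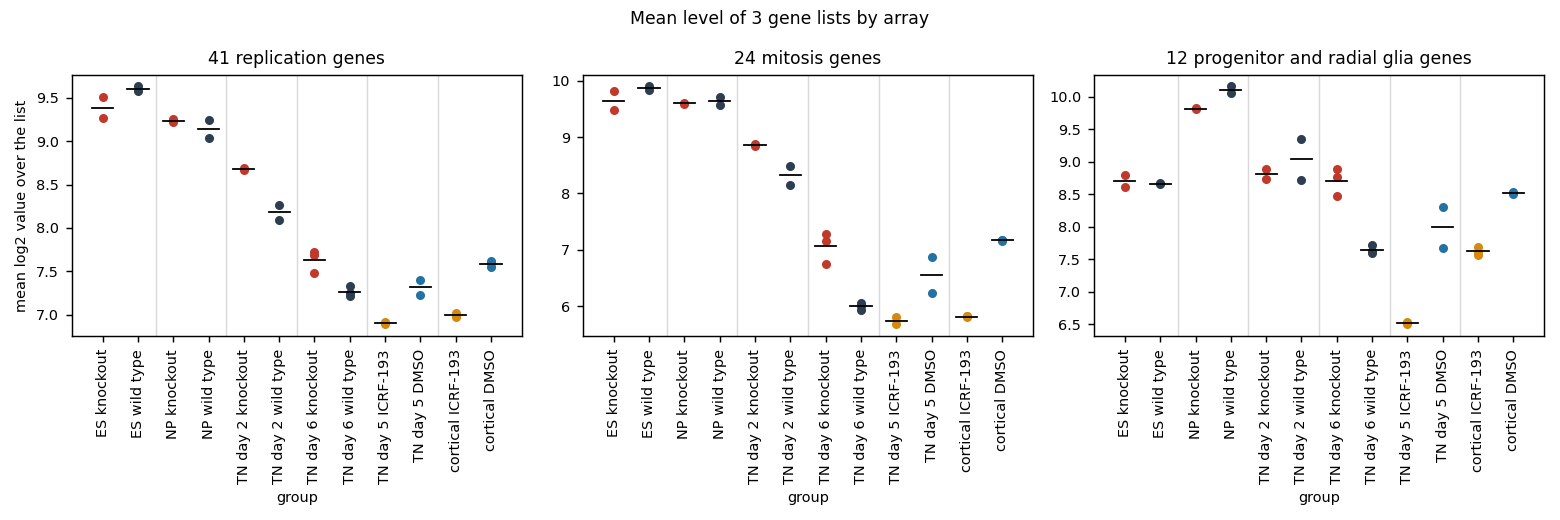
Mean log2 value per array (points) and per group (bars) of the 41 replication genes, 24 mitosis genes and 12 progenitor and radial glia genes, knockout or ICRF-193 to the left of its wild type or DMSO. In all 3 lists the knockout arrays lie above wild type at TN day 6 and the ICRF-193 arrays below DMSO, whereas at TN day 2 the progenitor list does not separate the genotypes.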

How the data were processed

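The deposited values are on a log2 scale, with 35556 probe sets by 28 arrays, and came from oligo 1.14.0, per the submitters' processing notes. How probes were summarized, and the base of the logarithm, is not stated in the labels or the table; base 2 was read from the range of 1.963 to 13.99. No normalization was added. The probe set with the highest mean stood for each of 19938 genes. In R 4.3.3, limma 3.58.1 fitted 12 group means to the 28 arrays (16 residual and 4.87 prior degrees of freedom). Tests were two-sided, with Benjamini-Hochberg adjustment over all genes of each of 14 comparisons. The number of arrays limits the precision. The fit was tested on simulated data.

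The members, the lists and the tests were chosen with earlier results of these data known. Full statistics are given for the 8 called members with the largest change in each comparison and the leading member of each role, and for the 6 lowest adjusted p-values of the differences of differences. Outside the list, names are among the 3 called genes of a list with the largest change. Alternatives were quantile normalization, median centring, leaving out dim genes, only the arrays compared, array weights, an intensity trend, the mean over probe sets, a replicate block and leaving out each array.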

Additional observations from a re-analysis of the deposited data

Results flagged for a closer look

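The results below were picked out because the effect of knockout or drug differed between stages or systems in a test of the difference itself. The knockout difference grew from NP cells to TN day 2 for 2 of the 41 genes, Cdt1 (log2 difference of 0.6154) and Mcm6 (0.6706), where 2.71% of all genes were called. It turned downwards from TN day 2 to TN day 6 for 4 genes, Orc6 (-0.7873), Prim1 (-0.8383), Pold2 (-0.8844) and Gins2 (-0.5797), where 4.8% of all genes were called. The fold change with ICRF-193 was more negative in cortical neurons than at TN day 5 for 1 gene, Ccne2 (difference of -0.9104), where 4.37% of all genes were called. Counts of 2 and 1 among 41 genes are near those shares, so they say nothing about the list as a whole. Among these, Orc6, Prim1 and Ccne2 were called in every setting tried.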

How the results depend on the processing

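No named fold change that was called turned its sign in any setting. With only the arrays compared, the counts of called genes were 6 for the knockout at TN day 2, 3 for ICRF-193 at TN day 5, 0 in NP cells, 1 for the change of the knockout difference from NP cells to TN day 2, and 2 for the difference of the ICRF-193 responses. Array weights gave 10 at TN day 5 and 2 for the difference of the responses. For the change from NP cells to TN day 2, quantile normalization gave 5, median centring 0 and the replicate block 0. Leaving out 1 array at a time, which leaves a lone array assumed to vary like the other groups where a group has 2, gave 5 to 17 at TN day 2, 12 to 23 at TN day 6, 9 to 17 at TN day 5, 25 to 28 in cortex, 0 in NP cells and 0 to 11 in ES cells. It gave 12 to 21 from ES to NP cells in wild type, 0 to 1 and 2 to 6 for the later changes of the knockout difference, and 1 to 4 for the difference of the responses. The causes were not tested. The correlation of same-numbered deviations from the group means was 0.379 at TN day 5 and 0.137 at TN day 2, above the minimum of 0.1 set for pairing. It was -0.23 to 0.071 in the other comparisons of knockout or drug. The reported fits used no pairing. With the replicate block the count was 21 at TN day 6, 26 at TN day 2, 16 at TN day 5 and 27 in cortex. A crossed pairing in NP cells, added after seeing the data, gave 1. The choice of the other Tk1 probe set was also made after seeing the data.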
